A study of Mus musculus with 12 samples.

Results

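The amygdala of mice that went through retrieval-extinction (RE) was set against that of Control mice, using libraries RE 3, RE 4 and RE 5 and libraries Control 1, Control 2 and Control 3, which are 6 of the 12 libraries of the series and were chosen by their group label alone. All animals were male C57BL/6J mice aged 10 weeks. RE mice were conditioned to a tone paired with foot shock, received 1 reminder tone without shock on the following day, rested in the home cage for 1 hour, and were then given repeated tones with no shock. E mice had the same conditioning and extinction with no reminder tone. F mice were conditioned only, and Control mice had the conditioning session with the shock omitted. Tissue was taken 1 hour after the last session, which for F and Control mice was on the conditioning day and for RE and E mice on the following day. The shock, the reminder, the extinction tones and the day of sampling all separate RE from Control, and their parts cannot be told apart. The study's methods name 3 mice per group and dissection of most of the basolateral amygdala from coronal slices. The labels do not say which library is which animal, so the p-values below measure the spread between these libraries. Values are listed in the order RE 3, RE 4, RE 5 and Control 1, Control 2, Control 3.

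The basolateral amygdala stores the association between a cue and a threat. A reminder can return a stored memory to a labile state, and extinction inside that window is used to update it. Stress and arousal release glucocorticoids, which bind the glucocorticoid receptor. The receptor enters the nucleus, binds palindromic DNA elements and raises transcription of genes such as Sgk1, Fkbp5 and Tsc22d3. Some clock genes, Per1 among them, respond to the same hormone as well as to the circadian activators Clock and Arntl. Immediate early genes are transcribed soon after neuronal firing and decline within hours.

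Coding transcripts (mRNAs), long noncoding transcripts (lncRNAs) and RNA circles (circRNAs, detected by reads across a back-splice junction) came from the same ribosomal RNA depleted libraries. The RE libraries held 12134750 to 14779291 mRNA fragments and the Control libraries 12542957 to 23167333. In 1 library of each group, RE 4 and Control 2 among them, the lncRNA profile stood apart, with first principal component scores of 46.4 to 68.1 against -31 to -21.4 in the other 8 libraries. This component held 18.4% of the variance. The same 4 libraries also scored highest on the first mRNA component, at 13.7 to 41.9 against -32.4 to 0.5 in the other 8. That component held 25.7% of the variance. List medians that moved by more than 1.5 times without RE 4 or Control 2 are given below with that value. The excitatory neuron markers of the labelled tissue were abundant, with a summed level over 17 pyramidal neuron genes of 2173, 2088 and 2242 FPKM (fragments scaled to gene length and library depth) in RE and 1893, 1564 and 1932 FPKM in Control. Striatal, central amygdala and hypothalamic markers were also present in each library, and their values are given below.

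Of 13517 mRNAs tested 9 passed the adjusted test (limma on log2(FPKM + 0.1), Benjamini-Hochberg adjusted p under 0.05), which is 0.0666%, and all 9 were higher in RE. At an unadjusted p under 0.05, 1304 (9.65%) lay on either side, 635 higher (4.70%) and 669 lower (4.95%). The 3 RE values did not overlap the 3 Control values for 12.7% of mRNAs, 6.51% higher and 6.14% lower in RE. The 9 genes were Cd34, Osbpl1a, Sgk1, Rassf3, Zbtb16, Tsc22d3, Hif3a, Fhod3 and Cpne9. Sgk1 (ENSMUSG00000019970, chromosome 10, 21882184 to 21999903, + strand) and Cd34 (ENSMUSG00000016494, chromosome 1, 194938821 to 195038908, + strand) are given with the loci of the deposited table in mouse mm10, which can span overlapping genes.

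**Figure D1:**
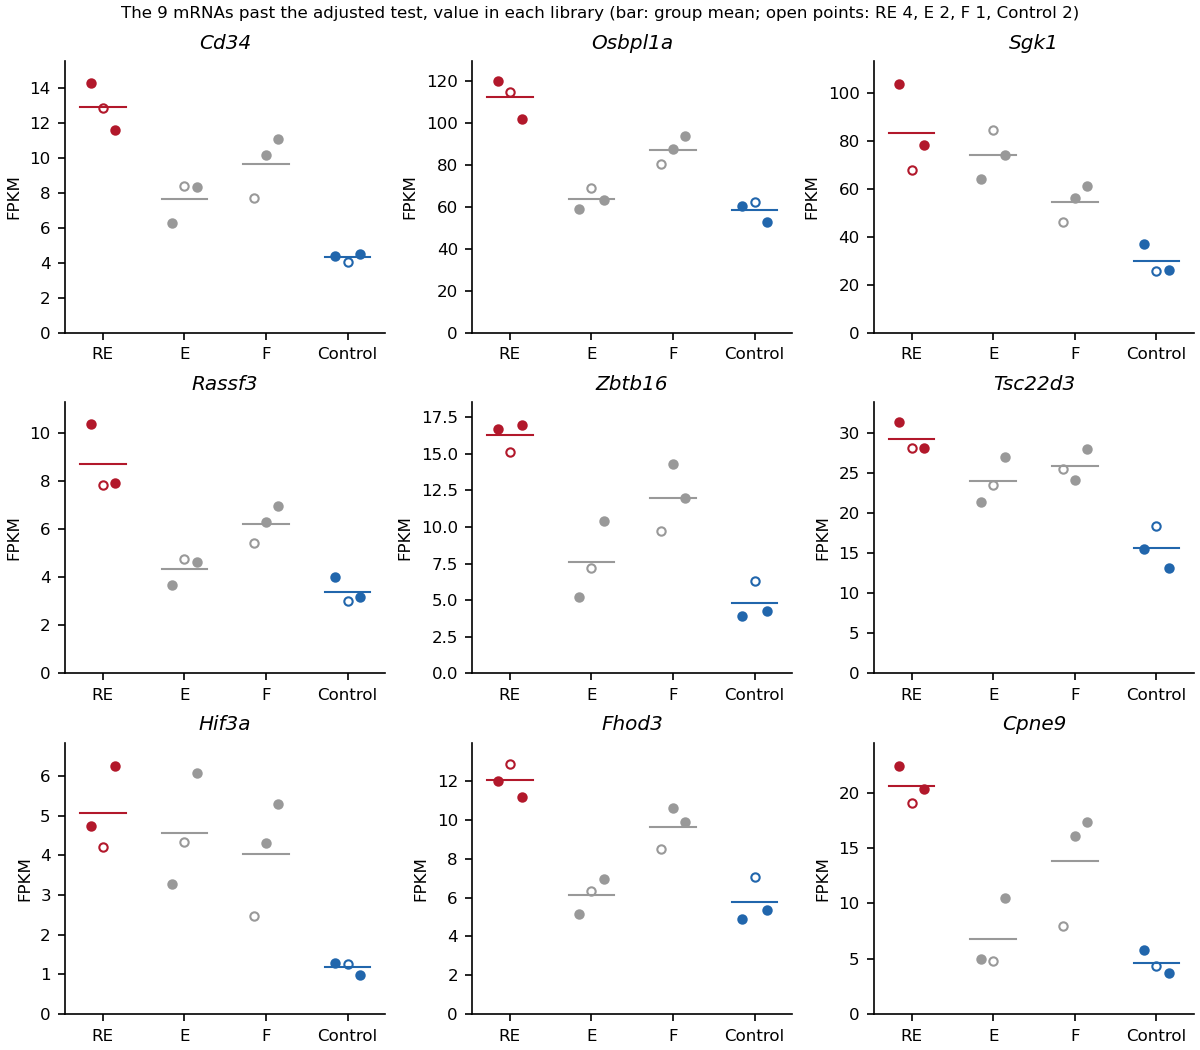
Level in FPKM (vertical axes, each starting at 0) of the 9 mRNAs past the adjusted test in the libraries of RE, E, F and Control (left to right), where each point is 1 library, each bar is a group mean and open points are RE 4, E 2, F 1 and Control 2. In each panel the 3 RE points lie above the 3 Control points, for Cd34 at 11.6 to 14.3 FPKM in RE and 4.02 to 4.50 FPKM in Control.

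Sgk1 encodes a kinase that is transcribed within minutes of hormone exposure and phosphorylates ion channel regulators. It was at 104, 67.7 and 78.5 FPKM in RE, against 37.1, 25.8 and 26.2 FPKM in Control. All 3 RE libraries lay well above all 3 Control libraries (log2 difference 1.48 ± 0.19 SE, adjusted p = 0.0159, limma). Zbtb16, the zinc finger transcription factor PLZF, was at 16.7, 15.1 and 17 FPKM in RE, against 3.92, 6.34 and 4.25 FPKM in Control (1.76 ± 0.24, adjusted p = 0.0291, limma). Hif3a, a regulatory subunit of the hypoxia-inducible factor family that glucocorticoids induce in several tissues, was at 4.74, 4.21 and 6.24 FPKM in RE, against 1.30, 1.26 and 0.988 FPKM in Control (2.00 ± 0.29, adjusted p = 0.0330, limma). Tsc22d3 encodes GILZ, a leucine zipper protein that mediates part of the anti-inflammatory action of glucocorticoids. Its level was 31.4, 28.2 and 28.2 FPKM in RE, against 15.6, 18.4 and 13.2 FPKM in Control (0.90 ± 0.13, adjusted p = 0.0330, limma). These 4 are the called members of the list of glucocorticoid-induced genes.

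The other 5 called mRNAs have varied roles. Cd34, a sialomucin on the surface of vascular endothelium and progenitor cells, was at 14.3, 12.9 and 11.6 FPKM in RE, against 4.40, 4.02 and 4.50 FPKM in Control (1.56 ± 0.16, adjusted p = 0.00684, limma). The spread within each group was small beside the gap between them. Of 23 endothelial markers 12 were above and 11 below Control (median 0.07, 0.14 without RE 3, -0.05 without RE 4 and 0.00 without Control 1), and their summed level was 128, 168 and 125 FPKM in RE and 119, 137 and 122 FPKM in Control. Osbpl1a, an oxysterol-binding protein of late endosomes, was at 120, 115 and 102 FPKM in RE, against 60.4, 62.2 and 52.9 FPKM in Control (0.94 ± 0.10, adjusted p = 0.00767, limma). Rassf3, a Ras-association domain protein, was at 10.4, 7.87 and 7.95 FPKM in RE, against 4.00, 3.02 and 3.20 FPKM in Control (1.33 ± 0.17, adjusted p = 0.0159, limma). Fhod3 and Cpne9 were the remaining called genes, and neither overlapped between the groups. Fhod3, a formin that organises actin filaments, was at 12, 12.9 and 11.2 FPKM in RE, against 4.90, 7.07 and 5.34 FPKM in Control (1.07 ± 0.16, adjusted p = 0.0399, limma). Cpne9, a copine that binds membrane lipids in a calcium-dependent way, was at 22.4, 19.1 and 20.3 FPKM in RE, against 5.79, 4.31 and 3.71 FPKM in Control (2.16 ± 0.33, adjusted p = 0.0399, limma).

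The 9 genes were then set against E. They were called for high values in the same RE libraries, so a pass against E is not independent evidence. Osbpl1a averaged 113 ± 9.66 FPKM in RE and 63.7 ± 5.13 FPKM in E (SD, n = 3 each), and RE exceeded E with an adjusted p of 0.0132 (limma, log2 difference 0.82). Rassf3 (0.98, adjusted p = 0.0361), Fhod3 (0.97, adjusted p = 0.0361) and Cpne9 (1.69, adjusted p = 0.0438) were also above E by the same test. In RE against E, 0.614% of all mRNAs tested passed. Sgk1 averaged 83.4 FPKM in RE, 74.3 FPKM in E, 54.5 FPKM in F and 29.7 FPKM in Control, and its RE to E difference of 0.15 did not pass (adjusted p = 0.884, limma). Hif3a and Tsc22d3 did not pass against E either, with log2 differences of 0.18 (adjusted p = 0.928) and 0.29 (adjusted p = 0.473). For Cd34 and Zbtb16 the RE minus E differences of 0.76 and 1.14 had an adjusted p of 0.0642 each (limma). Against F 0 of the 13517 mRNAs passed in limma (0%), with 950 at an unadjusted p under 0.05, and 0 passed in edgeR's quasi-likelihood test on fragments.

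How far each call rests on single libraries differed between genes. Cd34 passed in 15 of 15 alternative settings and Osbpl1a in 13, Sgk1 in 10, Rassf3 in 9, Zbtb16 in 8 and the other 4 in 7 each. Without Control 3, Cd34 alone passed (adjusted p = 0.0485), and without RE 5 the count was 2, Cd34 and Osbpl1a. Without RE 3 it was 5 and without Control 1 it was 4. In the 8 libraries without RE 4, E 2, F 1 and Control 2, 6 mRNAs passed (3 higher and 3 lower in RE), 2 of them among the 9. With a model term for the 4 outlying libraries the count was 167 (92 higher and 75 lower in RE), and with edgeR's quasi-likelihood test on recovered fragments it was 118 (77 higher and 41 lower). All 9 genes passed in both of these. Each of the 9 stayed above Control in all 15 settings, with a log2 difference no lower than 0.78 for Tsc22d3 and no higher than 2.33 for Cpne9.

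Promoter windows of these genes were searched for the exact letters of the receptor's element, and sequence outside the windows was not searched. Of the 9 called genes 5 had a promoter window in the RefSeq table (12 windows of 300 bases, from 250 before to 50 after a start site, build GRCm38.p6), as did 27 of the 31 glucocorticoid-induced genes (41 windows). The full palindrome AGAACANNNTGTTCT was searched on both strands and was found in 3 of 32851 windows genome-wide (0.00913%). Among the genes of both sets that had a window Sgk1 alone had it, and the genes without a window were not searched. In the Sgk1 window (chr10:21993640-21993939, + strand) the palindrome, in capitals, starts 189 bases before the start site.

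Sgk1 promoter: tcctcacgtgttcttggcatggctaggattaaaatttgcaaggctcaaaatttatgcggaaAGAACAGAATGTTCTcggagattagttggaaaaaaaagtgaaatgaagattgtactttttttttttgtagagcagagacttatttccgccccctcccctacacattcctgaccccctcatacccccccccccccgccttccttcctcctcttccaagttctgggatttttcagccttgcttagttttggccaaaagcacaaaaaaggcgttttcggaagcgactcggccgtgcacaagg

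The single arm TGTTCT, which lies inside the palindrome and so is counted with it, was in 19% of all windows, in 19.5% of the 41 windows of glucocorticoid-induced genes and in 4 of the 12 windows of called genes (33.3%), those of Sgk1 and Tsc22d3. The Tsc22d3 window (chrX:140600473-140600772, - strand) has it 185 bases before the start, shown in capitals. A match is a description of these letters and not a measured binding site.

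Tsc22d3 promoter: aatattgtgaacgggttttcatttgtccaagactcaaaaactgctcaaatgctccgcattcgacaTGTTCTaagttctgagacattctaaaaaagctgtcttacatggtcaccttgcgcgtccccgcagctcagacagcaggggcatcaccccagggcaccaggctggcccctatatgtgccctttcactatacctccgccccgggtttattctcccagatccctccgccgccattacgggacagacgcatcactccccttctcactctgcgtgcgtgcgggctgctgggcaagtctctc

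Glucocorticoid-induced genes lay above Control in 29 of 31 tested members (32 were listed), with a median log2 difference of 0.36, where 45.7% of all mRNAs were above Control and the median of all was -0.02. This list and the other marker lists were chosen with earlier results of these data known. Their counts are therefore descriptions and not independent evidence. Of the 31, 4 passed the adjusted test, where 0.0666% of all mRNAs did. Before adjustment 14 had a p under 0.05, all 14 higher in RE, where 4.70% of all mRNAs did so. The summed level of the list was 950, 712 and 828 FPKM in RE and 641, 594 and 536 FPKM in Control. The groups did not overlap, and 14 of the single genes did not overlap either, where 6.51% of all mRNAs lay apart in that direction. The median was 0.25 without Control 3, 0.55 without Control 2 and 0.45 in the 8 libraries. Of the 31, 9 passed with the model term for the 4 outlying libraries, where 167 of all 13517 mRNAs did. With 1 library left out 0 to 3 passed, with 0 without RE 5 or Control 3, where 1 to 12 of all mRNAs did.

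Fkbp5, the immunophilin that restrains the receptor in a feedback loop, was at 15, 14.9 and 18.1 FPKM in RE, against 10.5, 10.1 and 8.75 FPKM in Control (log2 difference 0.70 ± 0.13, adjusted p = 0.0666, limma). Plin4, a lipid droplet coat protein, was at 2.54, 0.954 and 3.19 FPKM in RE and 0.259, 0.404 and 0.247 FPKM in Control (2.40 ± 0.40, adjusted p = 0.0537, limma). Arrdc2, an arrestin-domain protein, was at 4.61, 3.78 and 3.79 FPKM in RE and 1.61, 2.24 and 1.44 FPKM in Control (1.17 ± 0.24, adjusted p = 0.0932, limma). None of these 3 overlapped between the groups, and none passed. Klf9, a Kruppel-like factor that both glucocorticoid and thyroid hormone induce, was at 82.8, 52.1 and 64.7 FPKM in RE and 49.3, 26.0 and 36.6 FPKM in Control. Sesn1, a stress-inducible sestrin, was at 17.3, 20.4 and 16.2 FPKM in RE and 13.1, 12.5 and 11.4 FPKM in Control. Fam107a, an actin-bundling protein of the brain that stress induces, was at 211, 133 and 167 FPKM in RE and 120, 126 and 103 FPKM in Control. Each of these 3 was higher in all RE libraries, with unadjusted p-values of 0.00365, 0.00114 and 0.00459 in limma. Nfkbia, the inhibitor of NF-kappa-B, showed the same separation at 9.19, 10.7 and 8.53 FPKM in RE and 7.22, 6.66 and 5.85 FPKM in Control, as did Errfi1, a feedback inhibitor of the EGF receptor, at 9.62, 10.4 and 9.53 FPKM in RE and 8.01, 8.54 and 6.78 FPKM in Control. Mt2, a metal-binding protein, overlapped between groups at 63.0, 46.0 and 57.8 FPKM in RE and 35.1, 46.2 and 40.0 FPKM in Control. Pdk4, a kinase that shuts down pyruvate oxidation, was at 2.64 to 3.00 FPKM in RE and 2.12 to 2.64 FPKM in Control. The members below Control were Irs2, an insulin receptor substrate (log2 difference -0.26, adjusted p = 0.750, limma), and Rasd1, a dexamethasone-induced Ras protein (-0.15, adjusted p = 0.958, limma).

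Receptors and ligands of the stress axis were on both sides of Control. Nr3c1, the glucocorticoid receptor itself, was chosen after its values were seen. It averaged 22.1 ± 1.89 FPKM in RE and 20.5 ± 0.584 FPKM in Control (SD, n = 3 each; log2 difference 0.10 ± 0.10, adjusted p = 0.871, limma), and the groups overlapped. Nr3c2, the mineralocorticoid receptor, was at 13.7, 14.1 and 15.4 FPKM in RE and 18.2, 17 and 18.2 FPKM in Control, without overlap (-0.30 ± 0.10, unadjusted p = 0.00917 and adjusted p = 0.271, limma). Crhr2, a receptor for urocortins, was at 0.311, 0.487 and 0.527 FPKM in RE and 0.692, 1.00 and 1.36 FPKM in Control, also without overlap (-1.02 ± 0.37, adjusted p = 0.346, limma). Hsd11b1, the enzyme that regenerates active glucocorticoid inside cells, was at 4.33, 3.45 and 3.24 FPKM in RE and 2.96, 3.14 and 2.41 FPKM in Control (0.36 ± 0.23, adjusted p = 0.708, limma). Crh, the corticotropin-releasing hormone precursor, overlapped between groups (-0.32, adjusted p = 0.871, limma). Of the 8 genes tested in the list, 3 lay above and 5 below Control (median -0.21), the median being 0.11 without RE 3 and -0.13 without Control 2.

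Clock genes lay above Control in 16 of 18 tested members (19 were listed), with a median log2 difference of 0.30. This list too was chosen with earlier results of these data known, so its counts are a description. In limma 0 passed the adjusted test. In the unadjusted test 9 had a p under 0.05 in the higher direction and 0 in the lower, where 4.70% and 4.95% of all mRNAs did and 45.7% lay above Control, and the summed level was 528, 489 and 556 FPKM in RE and 438, 342 and 392 FPKM in Control. With the model term for the 4 outlying libraries 3 passed, where 167 of all 13517 mRNAs did. The list median ran from 0.25 without Control 2 to 0.40 without RE 4.

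The period genes are repressors of the clock's own activators. Per3 was at 12.6, 12.3 and 13 FPKM in RE and 7.61, 8.94 and 7.23 FPKM in Control (0.67 ± 0.11, adjusted p = 0.0537, limma). Per2 was at 9.16, 10.8 and 12.2 FPKM in RE and 7.26, 5.55 and 6.86 FPKM in Control (0.70 ± 0.17, adjusted p = 0.138, limma), and Per1 at 24.9, 32.6 and 32.1 FPKM in RE and 24.6, 16.7 and 17.8 FPKM in Control (0.61 ± 0.18, adjusted p = 0.231, limma). All 3 period genes were apart between groups, Per1 only narrowly. The proline and acidic amino acid-rich (PAR) transcription factors, which carry clock output through D-boxes, lay on the same side. Dbp was at 55.0, 51.9 and 70.0 FPKM in RE and 43.3, 22.7 and 31.9 FPKM in Control, Hlf at 69.8, 32.5 and 58.6 FPKM in RE and 33.5, 19.1 and 26.8 FPKM in Control, and Tef at 107, 102 and 126 FPKM in RE and 100, 82.1 and 85.2 FPKM in Control. Dbp and Tef did not overlap between groups, whereas RE 4 fell within the Control range for Hlf.

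Nr1d1 and Nr1d2 encode the REV-ERB nuclear receptors, which repress Arntl. Nr1d1 was at 36.1, 32.2 and 34.3 FPKM in RE and 26.6, 22.1 and 29.5 FPKM in Control (0.40 ± 0.12, unadjusted p = 0.00653, limma), and Nr1d2 at 40.2, 39.6 and 33.9 FPKM in RE and 27.4, 29.1 and 24.2 FPKM in Control (0.49 ± 0.12, unadjusted p = 0.00112, limma). Rorb, a related receptor that opposes them and also marks a class of excitatory neurons, was at 21.3, 18.4 and 16.7 FPKM in RE and 10.3, 10.3 and 10.1 FPKM in Control (0.87 ± 0.18, adjusted p = 0.104, limma). The members below Control were Arntl and Nfil3, and neither passed. Arntl, the activator BMAL1, was at 10.6, 9.48 and 11.6 FPKM in RE and 14.9, 9.69 and 13.8 FPKM in Control (-0.26, adjusted p = 0.691, limma), and Nfil3, which competes with PAR factors at D-boxes, differed by -0.35 (adjusted p = 0.858, limma). The cryptochromes Cry1 (0.18) and Cry2 (0.17) and the activators Npas2 (0.18) and Clock (0.03) overlapped between groups. Time of day at dissection is not in the labels, and its part in these values was not tested.

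Per1 is shown because it belongs to both the hormone list and the clock list. Its RefSeq window (chr11:69098699-69098998, + strand, GRCm38.p6) has the E-box CACGTG 166 bases before the start and the D-box TTATGNAA 24 bases before it, both in capitals and without overlap with each other. Both strands were searched. Of all windows 7.15% held the E-box and 3.38% the D-box. Of 22 windows from 16 of the 18 clock genes, 5 held the E-box (22.7%) and 2 the D-box (9.09%, in Per1 and Per3).

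Per1 promoter: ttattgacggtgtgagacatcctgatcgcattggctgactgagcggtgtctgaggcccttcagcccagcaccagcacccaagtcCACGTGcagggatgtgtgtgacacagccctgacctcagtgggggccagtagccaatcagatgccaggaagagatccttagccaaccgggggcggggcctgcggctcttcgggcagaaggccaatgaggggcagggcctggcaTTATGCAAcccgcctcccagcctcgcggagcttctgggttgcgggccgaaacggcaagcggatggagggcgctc

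**Figure D2:**
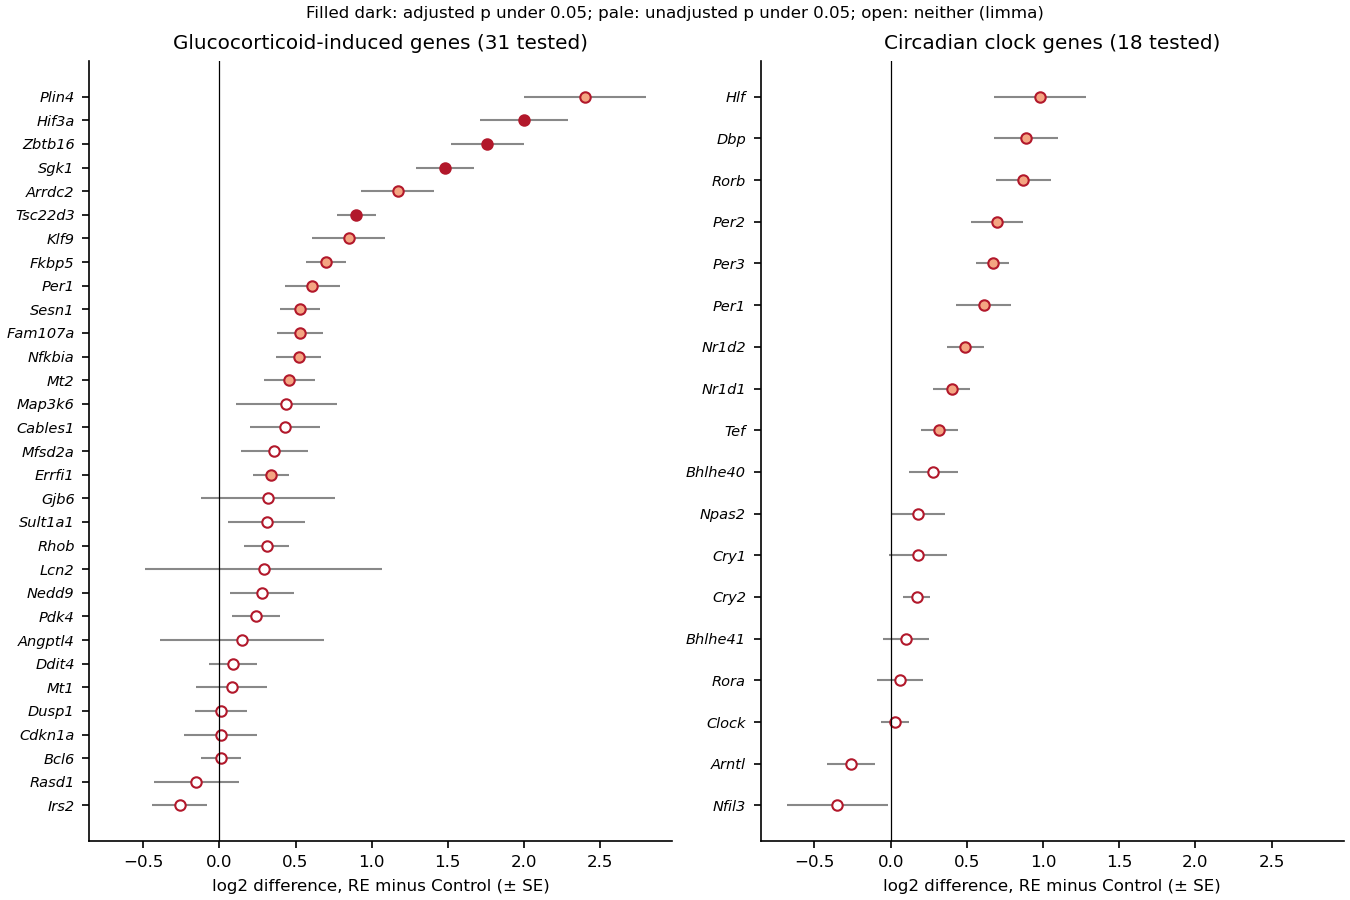
Log2 difference RE minus Control (horizontal axes, horizontal bars ± SE) for the 31 glucocorticoid-induced genes on the left and the 18 clock genes on the right, 1 gene per row, with dark filled points past the adjusted test, pale points at an unadjusted p under 0.05 and open points at neither (limma). Of the hormone list 29 points lie right of 0 and of the clock list 16, and the dark points are Hif3a, Zbtb16, Sgk1 and Tsc22d3.

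Immediate early genes were divided. Of 35 tested 17 lay above and 18 below Control, with a median of 0.00 after rounding, 2 higher and 6 lower at an unadjusted p under 0.05, where 4.70% and 4.95% of all mRNAs were, and 0 past the adjusted test. Npas4, a transcription factor induced by calcium entry in neurons, was at 1.79, 2.30 and 2.07 FPKM in RE and 5.24, 3.67 and 6.15 FPKM in Control (-1.23 ± 0.31, adjusted p = 0.163, limma). Btg2, an antiproliferative regulator, was at 1.54, 3.15 and 1.85 FPKM in RE and 4.93, 6.63 and 4.86 FPKM in Control (-1.34 ± 0.31, adjusted p = 0.131, limma). Atf3, a stress-induced repressor, was at 0.0726, 0.189 and 0.133 FPKM in RE and 0.459, 0.384 and 0.838 FPKM in Control (-1.48 ± 0.39, adjusted p = 0.178, limma). Each of these 3 was lower in all RE libraries. On the other side Nr4a2, an orphan nuclear receptor, was at 23.9, 18.5 and 31.0 FPKM in RE and 16.4, 8.04 and 13.4 FPKM in Control (0.98 ± 0.30, adjusted p = 0.240, limma). Fos and Arc were looked at after their values were seen. Fos was at 4.08, 14.7 and 11 FPKM in RE and 20.8, 13.3 and 17.7 FPKM in Control (-0.95 ± 0.40, adjusted p = 0.449, limma), and Arc, a regulator of synaptic receptor trafficking, at 24.5, 36.4 and 31.3 FPKM in RE and 38.0, 14.7 and 25 FPKM in Control (0.33 ± 0.30, adjusted p = 0.843, limma). Both overlapped between groups, and the sign for Arc was negative without Control 2. In the 8 libraries 26 of 34 immediate early genes were below Control (median -0.24), and the median was -0.20 without RE 4 and -0.22 without Control 2.

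The genes that follow activity more slowly split evenly, with 12 of 24 above and 12 below Control (median 0.02). Cpne9 was the 1 past the adjusted test, where 0.0666% of all mRNAs passed. At an unadjusted p under 0.05, 4 were higher and 2 lower, where 4.70% and 4.95% of all mRNAs were. The median was -0.10 without Control 2, -0.02 without RE 4, 0.11 without RE 3 and 0.12 without Control 1. Scg2, the granin precursor of secretoneurin, was at 70.4, 103 and 75.7 FPKM in RE and 111, 150 and 119 FPKM in Control (-0.62 ± 0.17, adjusted p = 0.210, limma). Crem, a cAMP-responsive repressor, was at 11.1, 13.5 and 12.1 FPKM in RE and 9.47, 8.80 and 6.97 FPKM in Control (0.54 ± 0.16, adjusted p = 0.235, limma). Sst, the somatostatin precursor, was at 132, 144 and 175 FPKM in RE and 189, 182 and 202 FPKM in Control (-0.36 ± 0.12, adjusted p = 0.295, limma). These 3 did not overlap between groups. Rgs4, a brake on G-protein signalling, was at 230, 138 and 172 FPKM in RE and 147, 71.6 and 97.0 FPKM in Control, with RE 4 inside the Control range.

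Pyramidal neuron markers lay mostly above Control, and central amygdala, hypothalamic, thalamic and cholinergic markers mostly below it, while striatal markers had a median above 0 and basolateral and hippocampal markers were mixed. In bulk tissue fewer cells of a type and less RNA per cell cannot be told apart, and the part of the dissection in these values was not tested. Of 17 pyramidal neuron markers 16 were above Control (median 0.29, 5 at an unadjusted p under 0.05, 0 past the adjusted test), where 45.7% of all mRNAs were above and 4.70% were higher at that p, and the summed levels given above for RE and Control did not overlap. Emx1, a dorsal forebrain homeodomain factor, was at 6.20, 4.86 and 5.62 FPKM in RE and 2.61, 2.72 and 3.37 FPKM in Control (0.92 ± 0.17, adjusted p = 0.0764, limma). The neurogenic factors Neurod6 and Neurod2 were also apart between groups. Neurod6 was at 16.1, 15.9 and 17.1 FPKM in RE and 11.2, 5.62 and 8.98 FPKM in Control, and Neurod2 at 12.7, 14.2 and 14.2 FPKM in RE and 9.04, 9.34 and 12.2 FPKM in Control. In the 8 libraries 13 of the 17 were above Control (median 0.18).

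Basolateral amygdala markers themselves were mixed, with 9 of 16 above and 7 below Control (median 0.10), 3 higher and 4 lower at an unadjusted p under 0.05, where 4.70% and 4.95% of all mRNAs were. The median ran from 0.01 without Control 1 to 0.16 without Control 3, and was 0.04 without RE 4 and 0.03 without Control 2. Dkk3, a secreted Dickkopf-family glycoprotein, was at 42.3, 41.2 and 36.6 FPKM in RE and 18.5, 21 and 17.9 FPKM in Control (1.06 ± 0.18, adjusted p = 0.0537, limma). Fezf2, a zinc finger factor of deep-layer projection neurons, was at 4.54, 4.09 and 4.79 FPKM in RE and 2.24, 2.71 and 1.49 FPKM in Control (1.06 ± 0.27, adjusted p = 0.166, limma). Otof, the calcium sensor otoferlin, went the other way at 3.74, 7.22 and 6.56 FPKM in RE and 12.6, 14.9 and 11.4 FPKM in Control (-1.18 ± 0.27, adjusted p = 0.121, limma). The groups did not overlap for any of the 3.

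Central amygdala markers lay below Control in 15 of 18 members (median -0.41, 6 lower at an unadjusted p under 0.05, where 4.95% of all mRNAs were). The summed level was 542, 447 and 576 FPKM in RE and 846, 452 and 656 FPKM in Control, with overlap through Control 2. Nts, the neurotensin precursor, was at 1.10, 5.05 and 1.13 FPKM in RE and 8.43, 9.97 and 7.27 FPKM in Control (-2.12 ± 0.43, adjusted p = 0.0930, limma). Cartpt, the precursor of the CART peptides, was at 4.51, 4.95 and 3.56 FPKM in RE and 6.13, 8.50 and 7.56 FPKM in Control (-0.76 ± 0.18, adjusted p = 0.137, limma), and Htr2c, a serotonin receptor, at 10.1, 27.7 and 15.4 FPKM in RE and 29.8, 41.0 and 32.7 FPKM in Control (-1.06 ± 0.33, adjusted p = 0.256, limma). All 3 were lower in each RE library, and RE 4 was the highest of the RE libraries for each. The list median was -0.52 without Control 2 and -0.59 in the 8 libraries.

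Hypothalamic markers were below Control in 14 of 14 tested genes (25 were listed, and Six6 and Hmx2 were listed at 0 in all 6 libraries), with a median of -0.82 and 5 at an unadjusted p under 0.05, where 4.95% of all mRNAs were lower at that p. Their summed level was 150, 285 and 170 FPKM in RE and 253, 610 and 329 FPKM in Control, so that RE 4 lay within the Control range. Nnat, an imprinted membrane protein, was the member without overlap, at 44.6, 66.6 and 53.4 FPKM in RE and 92.9, 161 and 124 FPKM in Control (-1.18 ± 0.28, adjusted p = 0.132, limma). Baiap3, a regulator of dense-core vesicle release, was at 1.98, 10.3 and 2.11 FPKM in RE and 5.38, 36.1 and 10.1 FPKM in Control. Tmem130 (log2 difference -0.78) and Ahi1, a ciliary scaffold protein (-0.85), were likewise highest in Control 2 and, within RE, in RE 4. Without Control 2 the median was -0.45, with 10 of 13 genes below Control, without RE 4 it was -1.26, without Control 1 it was -1.24, and in the 8 libraries it was -0.74.

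Thalamic and cholinergic markers lay on the same side. Tcf7l2, a Wnt effector of thalamic neurons, was at 3.21, 2.29 and 3.58 FPKM in RE and 5.23, 6.21 and 5.33 FPKM in Control (-0.88 ± 0.18, adjusted p = 0.0984, limma). Calb2, the calcium buffer calretinin, was at 2.76, 9.87 and 3.19 FPKM in RE and 7.35, 40.2 and 10.7 FPKM in Control, and Slc17a6, the vesicular glutamate transporter of subcortical neurons, at 4.45, 13.6 and 5.23 FPKM in RE and 9.04, 16.8 and 11.5 FPKM in Control. In both, RE 4 and Control 2 were the highest of their groups, as they were for Lhx9, a LIM homeodomain factor (-1.69). Of 11 thalamic markers 8 were below Control (median -0.61, and -0.30 without RE 3). Of 9 cholinergic markers 9 were below Control (median -0.66), and their summed level did not overlap, at 26.2, 27.7 and 24.7 FPKM in RE and 42.0, 49.8 and 31.9 FPKM in Control. Gbx1, a homeodomain factor of basal forebrain neurons, was at 0.157, 0.338 and 0.178 FPKM in RE and 0.599, 1.30 and 0.781 FPKM in Control (-1.59 ± 0.38, adjusted p = 0.138, limma), and Lhx8, which specifies cholinergic neurons, at 1.28, 1.20 and 1.38 FPKM in RE and 3.17, 4.55 and 1.79 FPKM in Control (-1.14 ± 0.45, adjusted p = 0.416, limma). The neurotrophin receptor Ngfr (-1.18) and the zinc finger factor Zic1 (-0.77) overlapped between groups. In the 8 libraries the cholinergic median was -0.38, with 8 of 9 below Control. In all libraries 4 thalamic and 3 cholinergic markers were lower at an unadjusted p under 0.05, where 4.95% of all mRNAs were.

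Striatal spiny neuron markers overlapped between groups. Their summed level was 1864, 718 and 1493 FPKM in RE and 1847, 431 and 1082 FPKM in Control, lowest in RE 4 and Control 2. Of 21 tested 15 were above Control (median 0.63) with 0 at an unadjusted p under 0.05, where 4.70% of all mRNAs were higher at that p. The median was -0.09 without Control 2, 0.27 without RE 3, 1.11 without RE 4 and 1.17 without Control 1. Scn4b, a sodium channel subunit, was at 126, 33.4 and 80.7 FPKM in RE and 70.4, 7.53 and 30.7 FPKM in Control. The groups overlapped for it, and for the transcription factor Foxp1 (0.86 ± 0.40, adjusted p = 0.539, limma) and the small G-protein Rasd2 (0.84 ± 0.49, adjusted p = 0.671, limma).

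Local inhibitory neurons gave a mixed picture. Gad2, an enzyme that makes GABA, was at 45.8, 45.4 and 39.7 FPKM in RE and 64.3, 68.3 and 56.8 FPKM in Control (-0.53 ± 0.10, adjusted p = 0.0743, limma), whereas Pvalb, the calcium buffer of fast-spiking cells, was at 46.7, 19.8 and 22.0 FPKM in RE and 14.2, 11.5 and 11.7 FPKM in Control (1.13 ± 0.37, adjusted p = 0.291, limma). Both were apart between groups. Of 22 interneuron markers 8 were above and 14 below Control (median -0.19). Among 11 hippocampal markers, 5 above and 6 below (median -0.23), the endoplasmic reticulum protein Wfs1 was lower in each RE library, at 17.1, 37.5 and 33.5 FPKM, than in any Control library, at 47.4, 39.7 and 52.2 FPKM (-0.73 ± 0.24, adjusted p = 0.299, limma). The hippocampal median was 0.15 in the 8 libraries, 0.02 without RE 4 or without RE 5 and 0.12 without Control 2. Ociad2, a mitochondrial and endosomal protein, was 0.29 higher on the log2 scale (adjusted p = 0.424, limma).

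**Figure D3:**
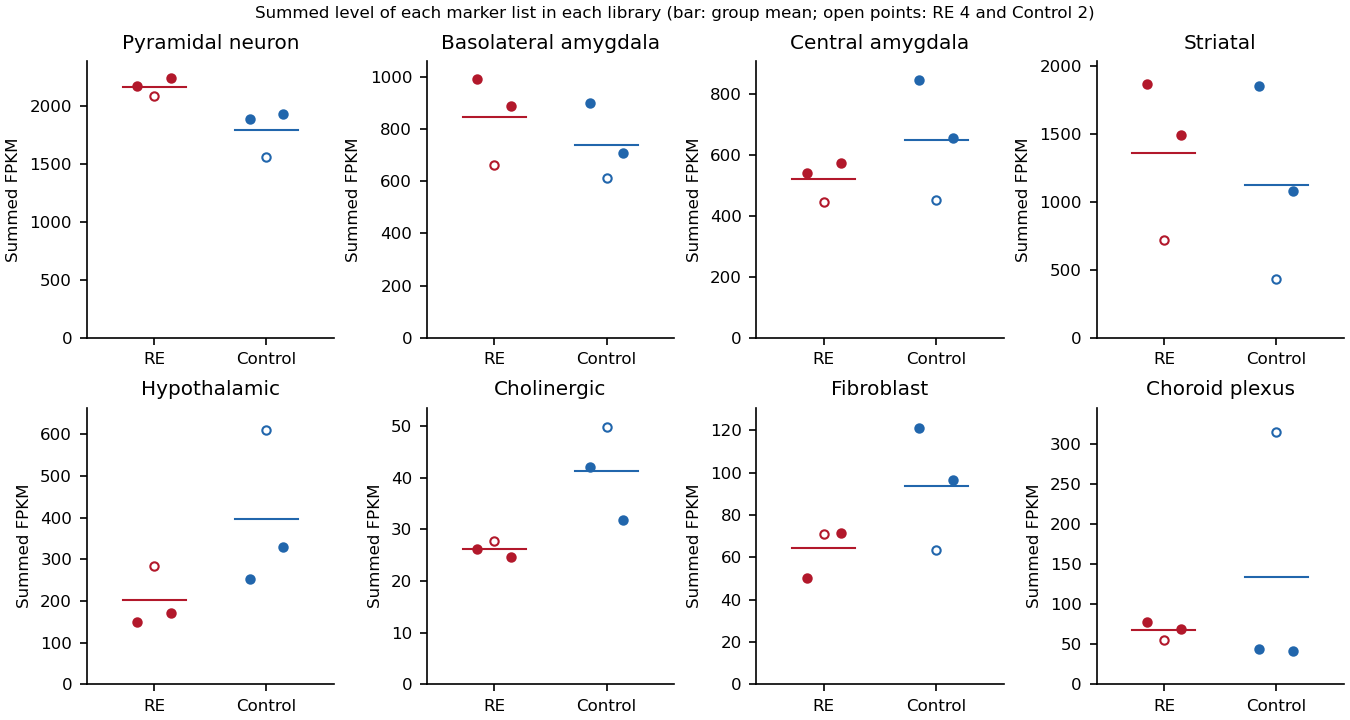
Summed level in FPKM (vertical axes, each starting at 0) of 8 marker lists in the 3 RE libraries (left) and the 3 Control libraries (right), where points are libraries, bars are group means and open points are RE 4 and Control 2. Pyramidal and cholinergic sums separate the groups (pyramidal 2088 to 2242 FPKM in RE and 1564 to 1932 FPKM in Control), striatal sums are lowest and hypothalamic sums highest in RE 4 and Control 2 within each group, and the choroid plexus sum of 316 FPKM in Control 2 stands alone.

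Among cells other than neurons, markers of meningeal and vascular fibroblasts lay below Control in all 17 tested genes (median -0.58, 6 at an unadjusted p under 0.05, where 4.95% of all mRNAs were lower at that p). The summed level was 50.4, 70.9 and 71.3 FPKM in RE and 121, 63.2 and 96.5 FPKM in Control, with Control 2 inside the RE range. The median was -0.26 without RE 3, -0.32 without Control 1, -0.38 without Control 3 and -1.01 without Control 2. Col3a1, a fibrillar collagen, was at 0.197, 0.307 and 0.434 FPKM in RE and 1.13, 0.505 and 1.20 FPKM in Control (-1.30 ± 0.36, adjusted p = 0.200, limma), and Dcn, the proteoglycan decorin, at 3.09, 2.86 and 3.54 FPKM in RE and 5.33, 9.06 and 4.91 FPKM in Control (-0.95 ± 0.31, adjusted p = 0.270, limma). The growth factor Igf2 (-0.70) and the proteoglycan Bgn (-0.72) overlapped between groups. Smooth muscle genes lay with them. Acta2, smooth muscle actin, was at 1.59, 1.74 and 2.12 FPKM in RE and 3.76, 2.56 and 7.23 FPKM in Control (-1.15 ± 0.32, adjusted p = 0.202, limma), and Tagln, an actin-binding protein of the same cells, differed by -0.91 (adjusted p = 0.369, limma). Rgs5, a pericyte gene, was on the other side at 16.5, 18.6 and 15.6 FPKM in RE and 12.1, 15.5 and 13.7 FPKM in Control (0.30 ± 0.11, adjusted p = 0.396, limma). Of 13 pericyte and smooth muscle markers 4 were above and 9 below Control (median -0.32, -0.11 without RE 3 and -0.17 without Control 1).

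The endothelial list, balanced as a whole, held genes apart in both directions. Kdr, the main VEGF receptor, was at 0.656, 0.986 and 0.566 FPKM in RE and 1.61, 1.98 and 1.49 FPKM in Control (-1.12 ± 0.27, adjusted p = 0.138, limma), and Cldn5, a tight junction claudin, at 3.32, 4.50 and 2.17 FPKM in RE and 5.18, 7.80 and 6.03 FPKM in Control (-0.95 ± 0.30, adjusted p = 0.263, limma). Slc2a1, the glucose transporter of the blood-brain barrier, was at 16.6, 20.1 and 16 FPKM in RE and 11.3, 15.3 and 9.93 FPKM in Control (0.54 ± 0.19, adjusted p = 0.321, limma), and Ly6c1, an endothelial surface antigen, differed by 0.36 (adjusted p = 0.479, limma). None of these passed the adjusted test.

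Medians of the myelin, astrocyte and microglia lists were nearer 0 than those of the oligodendrocyte precursor and choroid plexus lists. Of 25 myelin genes 16 were above and 9 below Control (median 0.13, 0 at an unadjusted p under 0.05 in either direction), with a median of -0.20 without RE 3, 0.29 without RE 4, 0.06 without Control 1, 0.02 without Control 3 and 0.45 in the 8 libraries. Of 11 oligodendrocyte precursor markers 9 were below Control (median -0.30, -0.17 without Control 2 and -0.15 in the 8 libraries). Of these markers 4 were lower at an unadjusted p under 0.05, where 4.95% of all mRNAs were. C1ql1, a secreted C1q-like protein, was at 2.37, 2.36 and 2.62 FPKM in RE and 5.05, 5.61 and 4.12 FPKM in Control (-0.97 ± 0.23, adjusted p = 0.138, limma), and Olig2, a lineage transcription factor, at 5.56, 3.27 and 4.48 FPKM in RE and 5.64, 9.96 and 7.08 FPKM in Control (-0.75 ± 0.22, adjusted p = 0.231, limma). Gpr17 (-0.36) and Sox10 (-0.40) overlapped. Among astrocyte markers (6 of 17 above, median -0.09, 0.06 without Control 2 and -0.16 without Control 3) Sox9, a glial transcription factor, was at 5.75, 4.95 and 5.29 FPKM in RE and 8.83, 10.5 and 8.40 FPKM in Control (-0.78 ± 0.17, adjusted p = 0.109, limma). Microglia markers were above Control in 12 of 18 (median 0.08, and -0.01 without RE 4), and P2ry13, a purine receptor of these cells, was at 3.87, 3.30 and 3.73 FPKM in RE and 3.98, 5.19 and 4.60 FPKM in Control. Choroid plexus markers were below Control in 5 of 6 (median -0.84, and -0.22 without Control 2). Their summed level was 78.3, 55.7 and 68.7 FPKM in RE and 43.5, 316 and 42.0 FPKM in Control, so that Control 2 alone was above RE. Outside Control 2 most of this sum was Enpp2, which is also on the myelin list. Enpp2 was at 66.1, 48.3 and 50.7 FPKM in RE and 35.5, 71.9 and 34.4 FPKM in Control. It was the 1 choroid plexus member above Control (0.29, adjusted p = 0.802, limma). Kcnj13 (-1.42), Kl (-0.90) and Clic6 (-0.78), a potassium channel, the klotho protein and a chloride channel protein of that epithelium, were lower in each RE library, and none passed.

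Receptors for neuropeptides and transmitters that the study itself picked from these samples were below Control in 10 of 10 tested genes (14 were listed), with a median of -1.18 and 6 at an unadjusted p under 0.05. Of all mRNAs 45.7% lay above Control and 4.95% were lower at that p. A list chosen on these samples is not independent evidence of its direction. Its summed level was low, at 4.66, 16.5 and 7.42 FPKM in RE and 11.9, 47.9 and 18 FPKM in Control, again with RE 4 and Control 2 the highest of their groups. Oxtr, the oxytocin receptor, was at 1.42, 2.67 and 1.70 FPKM in RE and 3.15, 5.06 and 4.19 FPKM in Control (-1.08 ± 0.27, adjusted p = 0.146, limma). Npy2r, a neuropeptide Y receptor, was at 0.899, 4.54 and 1.91 FPKM in RE and 3.33, 11.6 and 4.92 FPKM in Control, with overlap through RE 4. The groups also overlapped, with RE 4 inside the Control range, for Glra1, a glycine receptor subunit (-1.68), Gabrq, a GABA receptor subunit (-1.61), Rxfp3, a relaxin-3 receptor (-1.27), Chrm5, a muscarinic receptor (-1.43), Galr1, a galanin receptor (-1.05), Prlr, the prolactin receptor (-0.99), and Trhr, the thyrotropin-releasing hormone receptor (-0.90). In the 8 libraries the median was -1.18, with 9 of 9 tested below Control.

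The hub genes that the study picked from these samples, a list with the same limit, were below Control in 9 of 10 (median -0.76), where 45.7% of all mRNAs lay above it. The exception was Adra1d, an alpha-1 adrenergic receptor, at 4.95, 5.94 and 3.37 FPKM in RE and 0.769, 2.23 and 0.553 FPKM in Control (2.11 ± 0.43, adjusted p = 0.0930, limma). P2ry1, a purine receptor, was at 0.713, 1.34 and 0.940 FPKM in RE and 1.81, 1.84 and 1.63 FPKM in Control (-0.80 ± 0.22, adjusted p = 0.200, limma). Sncg, gamma-synuclein, was at 0.854, 1.00 and 0.700 FPKM in RE and 2.35, 3.41 and 1.73 FPKM in Control (-1.41 ± 0.24, adjusted p = 0.0537, limma), and all 4 synuclein genes were below Control (median -0.25, and -0.15 without Control 3). Neuropeptide genes were below Control in 17 of 22 (median -0.28, -0.51 without RE 4 and -0.17 without RE 5). At an unadjusted p under 0.05, 5 of them were lower, where 4.95% of all mRNAs were. Oxt and Avp, the precursors of oxytocin and vasopressin, are hub genes of this kind with Control 2 above the other Control libraries. Oxt was at 0.172, 0.778 and 0 FPKM in RE and 0, 6.89 and 0 FPKM in Control, and Avp at 0.156, 4.49 and 0 FPKM in RE and 0.322, 5.40 and 0.143 FPKM in Control.

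Genes for transmitter receptor subunits lay on both sides of Control. Of 23 glutamate receptor and scaffold genes 15 were above Control and of 13 GABA-A subunits 8 were (median 0.04 for each list, 0.10 without RE 3 for the glutamate list, and -0.09 without RE 4, 0.12 without RE 5 and 0.14 without Control 2 for GABA-A subunits). At an unadjusted p under 0.05, 3 glutamate genes were higher and 3 lower, and 2 GABA-A subunits were higher and 2 lower. Of all mRNAs 4.70% were higher and 4.95% lower at that p. In both lists 0 passed the adjusted test. Grm3, a glutamate receptor that inhibits adenylyl cyclase, was at 52.7, 48.7 and 50.4 FPKM in RE and 40.2, 27.8 and 38.3 FPKM in Control (0.53 ± 0.16, adjusted p = 0.230, limma). Homer3, a postsynaptic scaffold protein, lay on the other side at 2.03, 1.42 and 1.62 FPKM in RE and 2.13, 3.10 and 2.80 FPKM in Control. Grin2a, an NMDA receptor subunit, was at 57.4, 56.1 and 61.3 FPKM in RE and 51.0, 44.0 and 49.3 FPKM in Control. Of the GABA-A subunits Gabra4 (0.46) and Gabrd (0.71), which form extrasynaptic receptors, were higher in each RE library, and Gabra2 (-0.34) overlapped between groups. Heat shock genes were below Control in 13 of 16 (median -0.13, and -0.06 without RE 3), with Hspb1, a small heat shock protein, at 1.33, 0.857 and 0.896 FPKM in RE and 1.37, 1.99 and 1.61 FPKM in Control. Cholesterol synthesis genes were below Control in 19 of 20 (median -0.18, -0.02 without RE 3 and -0.31 without RE 4), with Ebp, a sterol isomerase, differing by -0.44 (adjusted p = 0.475, limma). In each of the heat shock and cholesterol lists 1 gene was lower at an unadjusted p under 0.05. Of all mRNAs 45.7% lay above Control and 4.95% were lower at that p.

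**Figure D4:**
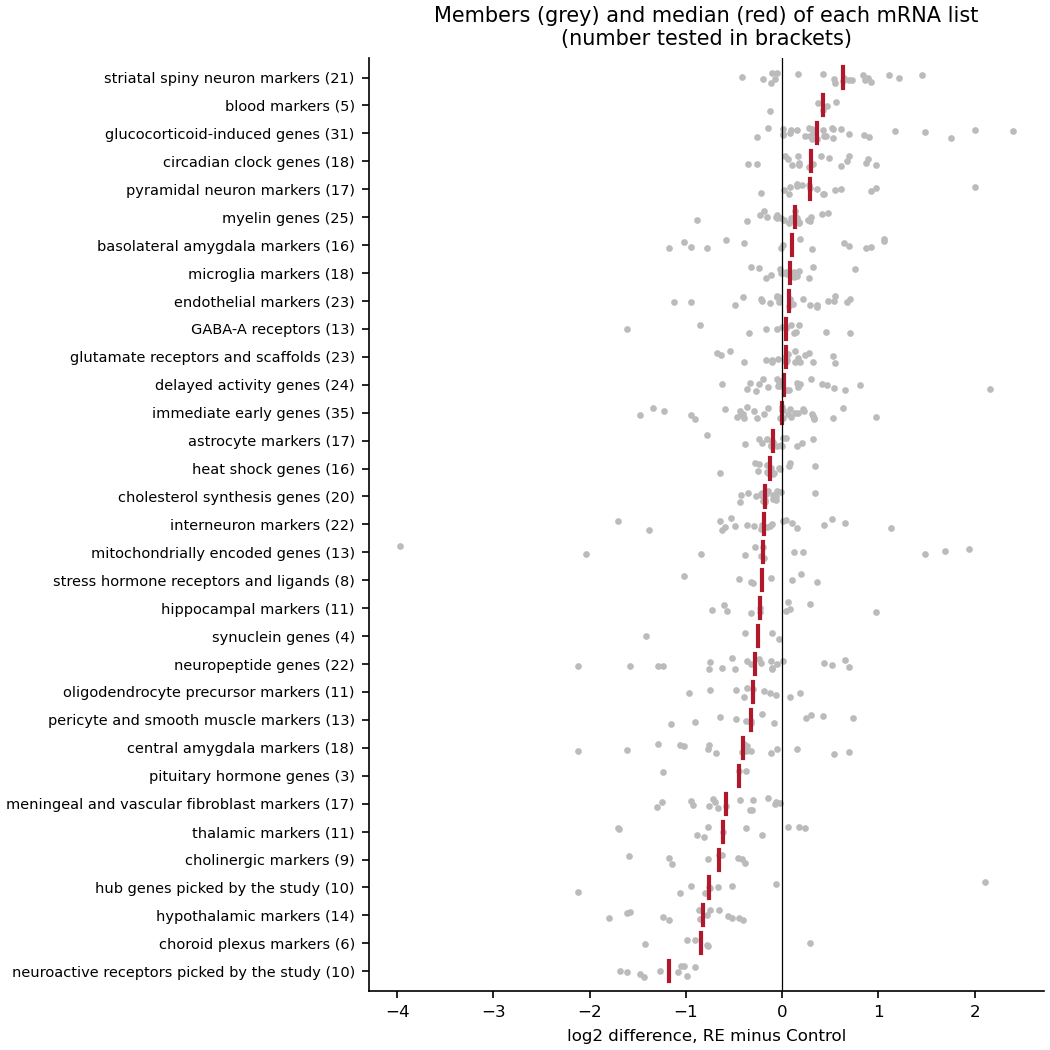
Log2 difference RE minus Control (horizontal axis) of every tested member (grey points) and the median (red bar) of each of 33 mRNA lists, ordered by median, with the number tested in brackets. Medians run from 0.63 for striatal markers at the top to -1.18 for the receptors picked by the study at the bottom, and all 17 fibroblast, 14 hypothalamic and 9 cholinergic points lie left of 0.

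Under the study's own thresholds, an unadjusted p under 0.05 and a log2 difference of at least 1 in size, 1.42% of mRNAs passed, 79 of them higher in RE (0.584%) and 113 lower (0.836%). Among those without overlap and at 1 FPKM or more in either group, the largest upward differences included Col24a1, a fibrillar collagen of bone and cortex, at 2.28, 0.933 and 2.5 FPKM in RE and 0.277, 0.373 and 0.0570 FPKM in Control (2.61 ± 0.53, adjusted p = 0.0932, limma), Ovol2, a zinc finger factor of epithelia (2.34 ± 0.49, adjusted p = 0.0984), and Hkdc1, a hexokinase-like enzyme (2.24 ± 0.46, adjusted p = 0.0951). Tspan11, a tetraspanin (2.27), Tcap, the titin cap protein (2.47), Gm9912 (2.15) and Gm14306 (2.66) completed them beside Plin4, Cpne9 and Adra1d. Gm14306 was at 6.20, 0.618 and 0.445 FPKM in RE, so that RE 3 set its mean. On the other side Drd3, a dopamine receptor, was at 0.408, 0 and 0.280 FPKM in RE and 1.98, 0.982 and 0.788 FPKM in Control (-2.23 ± 0.57, adjusted p = 0.163, limma). Pappa2, a protease that frees insulin-like growth factors, was at 0.293, 1.91 and 1.08 FPKM in RE and 3.86, 3.29 and 4.35 FPKM in Control (-2.0 ± 0.45, adjusted p = 0.116, limma). Mea1 (-1.82), Ebf4, an EBF-family factor (-2.15), Atp6v1c2, a proton pump subunit (-2.15), Gpr101, an orphan receptor (-2.19), Gm7729 (-1.89) and 5830472F04Rik (-2.01) were also lower in each RE library, and none passed the adjusted test.

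Fam220a is listed at a pair of gene IDs on chromosome 5 and its values are uncertain. One ID was at 8.21, 0.769 and 0.190 FPKM in RE and 9.16, 10.2 and 8.66 FPKM in Control (-2.88 ± 0.84, adjusted p = 0.223, limma). The other, looked at after its values were seen, was at 2.04, 13.9 and 12.3 FPKM in RE and 1.85, 2.58 and 2.58 FPKM in Control (1.57 ± 0.57, adjusted p = 0.354, limma). RE 4 and RE 5, low at the first ID, were high at the other.

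For lncRNAs 0 of 9408 transcripts passed the adjusted test (0%) in limma, and 583 (6.20%) had an unadjusted p under 0.05, 306 higher (3.25%) and 277 lower (2.94%) in RE. Other settings of the same test called 0 to 9. At the study's thresholds 398 passed (4.23%), equally divided between higher and lower in RE (2.12% each). Of all tested 49.1% lay above Control, and the groups did not overlap for 11.5%, 6.24% higher and 5.22% lower in RE. In RE against E 0.0531% passed the adjusted test. Several of the largest differences were in transcripts that overlap the exons of a coding gene. Reads there can be shared between overlapping transcripts, so these levels are uncertain, and the part of read assignment was not tested. The transcript NR_028053 of Ngrn (chromosome 7, 80261215 to 80265378, + strand, exonic on the sense strand) was at 7.42, 5.85 and 5.25 FPKM in RE and 0.00647, 0.0122 and 0.0110 FPKM in Control (5.82 ± 1.30, unadjusted p = 0.00101 and adjusted p = 0.338, limma). In E 1, E 2 and E 3 it was at 0.0194, 8.71 and 0.0118 FPKM and in F 1, F 2 and F 3 at 8.77, 6.69 and 6.67 FPKM, so both groups also held high libraries. The coding gene Ngrn, which encodes a mitochondrial protein, was at 4.00, 8.51 and 4.32 FPKM in RE and 11, 20.8 and 12.1 FPKM in Control, the opposite order (-1.39 ± 0.41, adjusted p = 0.230, limma).

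A pair of transcripts of BC031353 traded places in the same way. The transcript uc009qrj.2 was at 2.13, 1.32 and 1.59 FPKM in RE and 0.0151, 0.00894 and 0.00254 FPKM in Control (4.01 ± 1.44, adjusted p = 0.663, limma), and uc009qrk.2 was at 0.00103, 0.000759 and 0.000124 FPKM in RE and 3.17, 2.24 and 2.81 FPKM in Control (-4.81 ± 0.88, adjusted p = 0.260, limma). Both span chromosome 9, 74952884 to 75032468. Summed over all 3 transcripts, BC031353 was at 3.87, 3.21 and 3.03 FPKM in RE and 4.83, 4.53 and 4.96 FPKM in Control, so the sum differed far less than either isoform. The coding gene at this place, Fam214a, overlapped between groups at 13.9, 10.5 and 13.2 FPKM in RE and 8.86, 14 and 9.44 FPKM in Control.

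Other transcripts near 0 in a whole group were Apoo-ps, Zfp672, AK192501, Snhg12 and an Ndufa5 transcript, all lower in RE. The Ndufa5 transcript was at 0.191, 2.41e-10 and 0.0122 FPKM in RE and 22.5, 4.79 and 25.2 FPKM in Control (adjusted p = 0.642, limma), while the coding gene Ndufa5, a complex I subunit, overlapped at 103, 62.4 and 98.8 FPKM in RE and 78.6, 73.2 and 99.3 FPKM in Control. The coding gene Zfp672 also overlapped, at 11.8, 11.3 and 9.42 FPKM in RE and 9.11, 12.1 and 10.3 FPKM in Control. Gm22389, Kctd3, Gm13601 and Gm22948 were on the other side. Gm22389 was at 1.32, 1.74 and 1.28 FPKM in RE and was listed at 0 in all 3 Control libraries, and Gm13601, annotated antisense to Xirp2, was at 3.15, 2.93 and 3.49 FPKM in RE and 1.08, 0 and 0 FPKM in Control.

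The abundant brain lncRNAs were level between groups or nearly so. The Malat1 transcript of highest level, a nuclear speckle RNA, was at 2803, 2249 and 1423 FPKM in RE and 2114, 2130 and 1859 FPKM in Control (0.03 ± 0.26, adjusted p = 1.00, limma), with RE 3 the highest and RE 5 the lowest library. Meg3, an imprinted RNA, was at 183, 225 and 227 FPKM in RE and 225, 341 and 265 FPKM in Control (-0.37 ± 0.18, adjusted p = 0.833, limma). Rian (-0.26), Peg13 (0.14) and Miat (0.26) had overlapping groups.

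CircRNAs were counted from 14635 to 20028 junction reads per RE library and 13494 to 23446 per Control library, which limits precision for all but the most abundant circles. Of 3241 tested 0 passed the adjusted test (0%, edgeR's quasi-likelihood test), and 121 (3.73%) had an unadjusted p under 0.05, 41 higher (1.27%) and 80 lower (2.47%) in RE. DESeq2 called 1, and edgeR's newer quasi-likelihood method called 0. At the study's thresholds 115 passed (3.55%), 37 higher (1.14%) and 78 lower (2.41%), and 47.4% of all lay above Control. Raw reads did not overlap between groups for 5.21%, 1.36% higher and 3.86% lower in RE. Because the circles are read only at their back-splice junctions, the junctions of the 3 that carry the results below are shown, 25 bases from the end of the circle in lower case followed by 25 bases from its start in capitals, read from GRCm38.p6 on the strand of the circle.

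Cdr1as: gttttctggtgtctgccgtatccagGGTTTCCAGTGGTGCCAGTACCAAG
Dennd4a: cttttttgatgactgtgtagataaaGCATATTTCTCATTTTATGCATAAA
Epha6: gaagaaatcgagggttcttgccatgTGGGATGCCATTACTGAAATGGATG

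The circle with the most junction reads was Cdr1as (chrX:61183248-61186174, + strand, 2927 bases), which lies antisense to the coding gene Cdr1 and is listed under that name in the deposited table. It is abundant in neurons and binds the microRNA miR-7. It had 1002, 1265 and 838 reads in RE, against 851, 561 and 474 reads in Control. Depth differed between libraries, so the share of all junction reads is the better measure. Cdr1as took 6.69%, 6.32% and 5.73% in RE, against 3.63%, 3.25% and 3.51% in Control. Each RE share lay above each Control share, the lowest RE interval starting at 5.35% and the highest Control interval ending at 3.88% (95% exact Clopper-Pearson intervals, which cover counting error only). The means were 6.25 ± 0.484% in RE and 3.46 ± 0.194% in Control (SD, n = 3 each), with an exact two-sided permutation p of 0.10, which is the smallest that 3 against 3 allows. E libraries took 3.32%, 4.28% and 4.13% and F libraries 3.38%, 4.54% and 5.94%, so F 3 reached the RE range.

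In edgeR's quasi-likelihood test Cdr1as differed by 0.85 ± 0.21 on the log2 scale (unadjusted p = 5.26e-05, adjusted p = 0.170). The difference ran from 0.78 without Control 3 to 0.97 without RE 5, whereas the adjusted p ran from 1.43e-06 without a minimum on reads to 0.997 without Control 3. It was 0.000414 with RLE factors, 0.00590 with DESeq2, 0.00449 with a minimum of 30 reads, 0.00279 with RE and Control libraries alone, 0.0415 with library size from all junction reads and 0.0424 with a model term for the 4 outlying libraries. It was 0.587 with edgeR's newer quasi-likelihood method, 0.864 in the 8 libraries and 0.181 to 0.997 with 1 library left out.

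**Figure D5:**
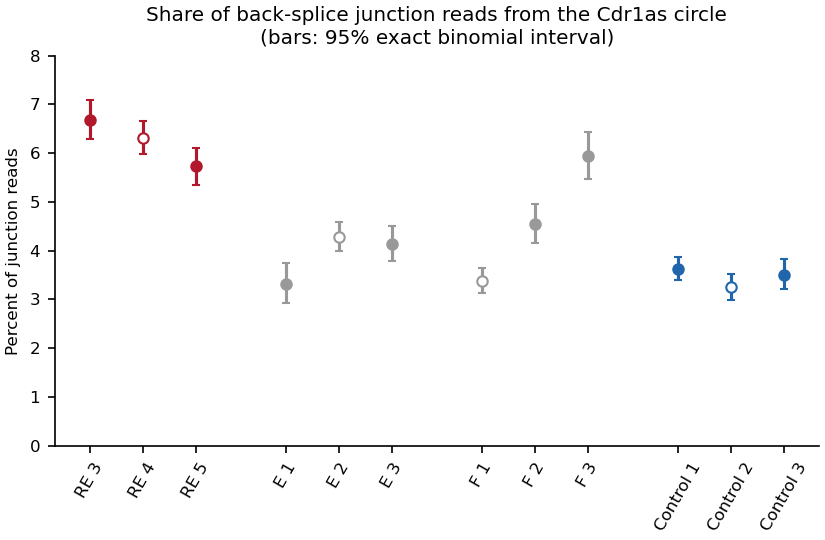
Share of back-splice junction reads that came from the Cdr1as circle (vertical axis, percent, starting at 0) in each library of RE, E, F and Control from left to right, with vertical bars for the 95% exact binomial interval and open points for RE 4, E 2, F 1 and Control 2. RE libraries lie at 5.73 to 6.69% and Control libraries at 3.25 to 3.63%, with F 3 at 5.94%.

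The sequence of Cdr1as is shown for its density of miR-7 matches. The mature miR-7a-5p of RefSeq has its seed, bases 2 to 8, in capitals below, and GTCTTCC is the match to that seed. Searched on the strand of the circle, the match occurs 123 times within its 2927 bases. Of 55762 windows of the same length on chromosome X, 18.4% hold at least 1 match, and the most in any window outside the circle is 10. The 200 bases with the most matches (chrX:61183651-61183850, + strand, GRCm38.p6) hold 11, in capitals. MicroRNA levels were not analysed here.

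mmu-miR-7a-5p: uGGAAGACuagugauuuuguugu
Cdr1as stretch: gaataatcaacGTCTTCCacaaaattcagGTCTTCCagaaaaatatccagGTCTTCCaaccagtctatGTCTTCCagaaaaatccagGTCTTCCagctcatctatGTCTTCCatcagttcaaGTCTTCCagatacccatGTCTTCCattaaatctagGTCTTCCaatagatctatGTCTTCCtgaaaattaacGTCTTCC

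The remaining circles had few reads. The Epha6 circle (chr16:60424721-60425384, - strand) had 0, 0 and 0 reads in RE and 7, 4 and 4 reads in Control (unadjusted p = 0.000757 and adjusted p = 0.783, edgeR's quasi-likelihood test). Pooled over libraries, it had 0 of 49640 junction reads in RE and 15 of 54181 in Control. With 3 reads put in place of the 0, the RE share was 4.58-fold lower. This figure takes the 15 Control reads as exact, so it is not a lower bound. The circle was also picked as the largest fall. E libraries had 2, 4 and 1 reads and F libraries 5, 3 and 0. All 8 Epha6 circles together had 3, 5 and 0 reads in RE and 9, 10 and 10 reads in Control. The mRNA of Epha6, an ephrin receptor, was at 23.7, 43.2 and 37.4 FPKM in RE and 49.6, 53.6 and 58.0 FPKM in Control (-0.67 ± 0.18, adjusted p = 0.186, limma), so the circle and its host were both lower in each RE library.

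The Dennd4a circle (chr9:64857667-64873139, + strand) had 7, 8 and 6 reads in RE and 2, 0 and 0 reads in Control (3.29 ± 0.99, adjusted p = 0.783, edgeR's quasi-likelihood test). Its host, an exchange factor for Rab proteins, was at 19.9, 21.3 and 20.7 FPKM in RE and 18.7, 16.5 and 18.9 FPKM in Control (0.20 ± 0.09, adjusted p = 0.530, limma). Circles from Ambra1, Arhgap26, Psmd1, Pde5a and Cacna1a were also higher in each RE library, with 3 to 12 reads in RE and 0 to 5 reads in Control. Circles from Rere, Cnot4, Ate1 and Rims2 were lower in each RE library, with 0 to 2 reads in RE and 3 to 9 reads in Control. The mRNA of Rere, a corepressor, overlapped at 27.7, 24.1 and 29.7 FPKM in RE and 27.0, 26.5 and 29.5 FPKM in Control while its circle had 0, 0 and 1 reads in RE and 4, 8 and 6 in Control. Among the other abundant circles, Tulp4 had 361, 373 and 386 reads in RE and 628, 340 and 284 in Control (0.02 ± 0.23), Ankib1 109, 125 and 103 reads in RE and 222, 137 and 143 in Control (-0.44 ± 0.27), and Strbp 126, 121 and 101 reads in RE and 127, 62 and 59 in Control (0.66 ± 0.28). For these the adjusted p was 0.999 each (edgeR's quasi-likelihood test). Unc79 (-0.31) and Ssbp2 (0.18) overlapped between groups.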

How the data were processed

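Amygdala RNA of 12 libraries (RE, E, F and Control, 3 each) was analysed. Group membership came from the labels. The authors aligned reads to mouse mm10 with HISAT2 and deposited FPKM from cuffdiff, per gene for mRNA and per transcript for lncRNA. Beside them the deposited tables hold a signal per library, an estimated fragment number already scaled by a library factor. Dividing it by the value of 1 fragment gave whole fragments within 0.05 for 92.54 to 93.68% of values. CircRNA values were deposited as the unscaled count of junction reads from STAR and DCC, with log2 CPM columns, also deposited, that were not used. The submitters' processing notes list BWA, CASAVA 1.8 and a human genome build, whereas the tables' loci are mouse. MicroRNA and the authors' own comparisons were not used, and 1 line of the mRNA and of the lncRNA table was left out.

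Levels were fitted as log2(FPKM + 0.1) with limma 3.58.1 (mean trend, all 12 libraries) in R 4.3.3, for mRNAs with a mean of at least 0.5 FPKM and lncRNAs of at least 0.1. The 56347 lncRNA lines held 31549 transcripts. CircRNAs with at least 10 junction reads were tested with edgeR 4.0.16 (quasi-likelihood, TMM). Library depth is given in the report, and intervals cover counting error only. Two-sided p-values were adjusted by Benjamini-Hochberg over all features of a class. The pseudocount shrinks differences of features at low levels.

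The members, the gene lists and the tests were chosen with earlier results of these data known. Named mRNAs are those past the adjusted test, the 10 largest rises and falls at the study's thresholds without overlap and with at least 1 FPKM in either group, up to 4 members per list, all hormone and clock members, and the study's hub genes and receptors (for the others the 6 largest each way and the 6 most abundant). Some items that this rule takes are not reported here. Alternatives were a pseudocount of 1, no filter or another minimum, a common median, quantile normalization, RE and Control libraries alone, a term for or removal of the 4 libraries that stood apart, edgeR on fragments, RLE factors, DESeq2 1.42.0, another library size, the newer edgeR fit, and each library left out. The code was tested on simulated data. Promoters, miRNAs and genome sequence are from RefSeq, GRCm38.p6. Python 3.11.15 with pandas 2.3.3, numpy 2.4.6, scipy 1.17.1 and matplotlib 3.10.9 made the tables and plots.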

Additional observations from a re-analysis of the deposited data

Results flagged for a closer look

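RE differed from E for 33 of the 155 genes examined one by one, 14 higher and 19 lower in RE, by the contrast of RE with E in the same limma fit (adjusted over all mRNAs, 0.614% of which passed). Most of the 155 were chosen for their difference between RE and Control, which shares the RE libraries, and the hub genes were picked by the study from these samples, so the count is not independent evidence and is a description beside that share. These genes are listed because the difference between the extinction schedules was itself tested, and values are log2 RE minus E. RE and E were sampled on the same training day, 1 hour after extinction. Of the genes called against Control, Osbpl1a (0.82, adjusted p = 0.0132), Rassf3 (0.98, adjusted p = 0.0361), Fhod3 (0.97, adjusted p = 0.0361) and Cpne9 (1.69, adjusted p = 0.0438) were higher in RE. Pyramidal neuron markers higher in RE were Neurod2 (0.72, adjusted p = 0.0423) and Emx1 (1.15, adjusted p = 0.0361). Of the basolateral amygdala markers Fezf2 (1.57, adjusted p = 0.0361) and Dkk3 (1.09, adjusted p = 0.0361) were higher in RE. Otof of the same list (-1.37, adjusted p = 0.0457) was lower, and the median of that list was 0.05. Fezf2 averaged 4.47 ± 0.355 FPKM in RE and 1.5 ± 0.609 FPKM in E (SD, n = 3 each). The other higher genes were Adcy1 (0.92, adjusted p = 0.0361), Hkdc1 (2.70, adjusted p = 0.0361), Tmem178 (0.93, adjusted p = 0.0361), Epha4 (0.76, adjusted p = 0.0398), Ovol2 (2.69, adjusted p = 0.0400) and Kcnt2 (0.80, adjusted p = 0.0422).

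Genes of vessel walls were lower in RE, namely Acta2 (-2.50, adjusted p = 0.0132), Tagln (-2.07, adjusted p = 0.0361) and Col3a1 (-1.93, adjusted p = 0.0422). Acta2 averaged 1.82 ± 0.276 FPKM in RE and 10.7 ± 0.955 FPKM in E (SD, n = 3 each). Beside Otof, lower genes that mark neurons in and around the amygdala were Gad2 (-0.84, adjusted p = 0.0125), Gbx1 (-2.23, adjusted p = 0.0361), Ngfr (-2.66, adjusted p = 0.0422), Nts (-2.48, adjusted p = 0.0361), Tcf7l2 (-1.03, adjusted p = 0.0398) and Drd3 (-3.07, adjusted p = 0.0413). The other lower genes were Sncg (-2.55, adjusted p = 0.00317), Hspb1 (-1.74, adjusted p = 0.0361), Ubash3b (-0.78, adjusted p = 0.0361), Sema6d (-0.59, adjusted p = 0.0400), Elfn1 (-0.84, adjusted p = 0.0404), P2ry1 (-1.17, adjusted p = 0.0423) and Nrsn2 (-0.59, adjusted p = 0.0424). Sncg averaged 0.853 ± 0.152 FPKM in RE and 5.46 ± 0.909 FPKM in E (SD, n = 3 each). Pituitary hormone genes also differed. Gh, growth hormone, was at 0, 1.24 and 0 FPKM in RE and 28.5, 10.9 and 4.53 FPKM in E (-5.58, adjusted p = 0.0457), and Prl, prolactin, at 0, 0.0813 and 0 FPKM in RE and 5.96, 2.41 and 1.56 FPKM in E (-4.59, adjusted p = 0.0132). Of 8 listed pituitary genes 3 were tested, Fshb, Tshb and Cga were listed at 0 in all RE and Control libraries, and the summed level was 0.0777 to 1.93 FPKM in RE, 6.32 to 36.1 FPKM in E and 0.683 to 1.56 FPKM in Control. Of the hypothalamic hormones Oxt was at 0 to 0.778 FPKM in RE and 5.72 to 8.42 FPKM in E (-4.56, adjusted p = 0.214), and Avp at 0 to 4.49 FPKM in RE and 7.43 to 27.3 FPKM in E (-4.95, adjusted p = 0.202). The part of tissue outside the amygdala in the differences between RE and E was not tested.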

How the results depend on the processing

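Of 13517 mRNAs, 9 passed in RE against Control, 17 with a pseudocount of 1, 2 with no filter, 16 with a common median, 17 with quantile normalization, 167 with a model term for the 4 outlying libraries, 118 with edgeR's quasi-likelihood test on fragments, and 1 to 12 with 1 library left out. The count at the study's thresholds was 192, and 59 with a pseudocount of 1, 321 with no filter, 307 in the 8 libraries and 135 to 326 with 1 library left out. For lncRNA the adjusted count of 0 became 8 with no filter, 1 with a minimum of 1 FPKM, 9 with RE and Control libraries alone, 8 in the 8 libraries and 0 to 5 with 1 library left out, and the 398 at the study's thresholds became 66 with a pseudocount of 1 and 94 with the minimum of 1 FPKM. For circRNA the adjusted count of 0 became 1, Cdr1as, with RLE factors, DESeq2, no minimum, a minimum of 30 reads, all junction reads as library size, RE and Control libraries alone and the model term for the 4 outlying libraries, and the 115 at the study's thresholds became 38 with DESeq2, 37 with the minimum of 30 reads and 76 with RE and Control libraries alone. The cause was not tested.

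Of 2820 alternative values for 190 features examined one by one, 21 had the other sign, in 10 features. These were Arc (-0.16 in the 8 libraries, -0.03 to 0.66 with 1 library left out), Trhr (-1.54 to 0.04), Rasd1 (-0.41 to 0.15), Malat1 (-0.14 with quantile normalization, -0.18 to 0.31), Miat (-0.07 to 0.66), the Tulp4 circle (-0.01 with all junction reads, -0.11 to 0.20), Clock (-0.04 in the 8 libraries, -0.02 to 0.06), Oxt (0.72 in the 8 libraries, -1.54 to 1.53), Avp (-2.37 to 0.61) and Prl (-0.71 to 0.00). Sgk1 in RE minus E ran from -0.02 to 0.29. Of 495 alternative medians over 33 lists 27, in 14 lists, moved by more than 1 SD between replicates. No paired analysis was possible because RE libraries are numbered 3 to 5 and Control libraries 1 to 3. Depth limits the circRNA results, since most circles described had under 10 reads per library.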

Other observations

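Just outside the threshold, 15 further mRNAs had an adjusted p of 0.0537 in limma, 10 higher and 5 lower in RE, and they were chosen after their values were seen. Per3, Dkk3, Plin4 and Sncg were described above. Several of the others act at synapses. Adcy1, a calcium-stimulated adenylyl cyclase of neurons, was at 73.6, 78.2 and 66.2 FPKM in RE and 37.1, 47.0 and 36 FPKM in Control (0.87 ± 0.14). Epha4, an ephrin receptor of axons and spines, was at 45.8, 34.4 and 40.8 FPKM in RE and 24.6, 22.2 and 20.3 FPKM in Control (0.84 ± 0.14). Frrs1l, an assembly factor of AMPA receptors, was at 77.6, 79.4 and 74.5 FPKM in RE and 54.3, 55.2 and 53.8 FPKM in Control (0.50 ± 0.09). In each of these 3 the RE libraries lay apart from the Control libraries. Kcnt2, a sodium-activated potassium channel, was at 19.2, 20.5 and 14.8 FPKM in RE and 9.84, 10.3 and 9.22 FPKM in Control (0.87 ± 0.15). Elfn1, a synaptic adhesion protein of interneurons, was at 4.41, 6.28 and 6.09 FPKM in RE and 9.98, 10.8 and 10.6 FPKM in Control (-0.91 ± 0.15), on the other side. The groups were apart for both.

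The remaining 6 were also without overlap. Dact2, a Wnt and TGF-beta pathway modulator, was at 12.9, 12.1 and 10.9 FPKM in RE and 7.19, 6.37 and 6.54 FPKM in Control (0.83 ± 0.14). Ankrd33b was at 24.7, 23.5 and 22.6 FPKM in RE and 14, 10.3 and 14.6 FPKM in Control (0.87 ± 0.15). Tmem178 was at 30.4, 29.8 and 21.8 FPKM in RE and 13.1, 15.7 and 13.6 FPKM in Control (0.94 ± 0.16). These 3 were higher in RE. Sema6d, a transmembrane semaphorin, was at 17.3, 20.9 and 18.4 FPKM in RE and 27.0, 31.4 and 28.6 FPKM in Control (-0.62 ± 0.11). Ubash3b, a phosphatase of tyrosine kinase signalling, was at 6.83, 7.01 and 6.23 FPKM in RE and 12.4, 11 and 11.4 FPKM in Control (-0.79 ± 0.13). Nrsn2 was at 30.9, 31.9 and 33.7 FPKM in RE and 47.9, 54.1 and 54.2 FPKM in Control (-0.69 ± 0.11). The last 3 were lower in RE. All 15 had an adjusted p under 0.05 in edgeR's quasi-likelihood test on fragments, from 0.0143 for Adcy1 to 0.0415 for Sncg, and with the model term for the 4 outlying libraries, from 0.0208 for Epha4 to 0.0286 for Kcnt2. Of all 13517 mRNAs these settings called 118 and 167. The 15 were picked on the same libraries, so these passes are not independent evidence.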
